A study of Mus musculus with 6 samples.

Results

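The mitochondrial ribosome makes the few proteins that mitochondrial DNA encodes, all of them parts of the respiratory chain or of ATP synthase. Its RNAs are transcribed in the organelle, but every one of its proteins is encoded in the nucleus, made in the cytosol and imported. The small subunit reads the mRNA and the large subunit joins the amino acids. Many of the proteins have bacterial relatives, and others are found only in mitochondria. The epithelium of the small intestine is rebuilt continually from crypt stem cells, and its absorptive cells are rich in mitochondria.

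The genes described here are those whose Ensembl mouse identifier belongs, in GENCODE M21 (GRCm38, the same assembly as mm10), to a protein-coding gene with a symbol of the form Mrpl or Mrps followed by a number. The rule used gene names and no measured value. It found 78 of the 55450 identifiers in the count table, 49 with a large-subunit symbol (Mrpl) and 29 with a small-subunit symbol (Mrps). Of these, 77 passed the filter on low counts and entered the test, which ran over 15028 genes. The remaining member, Mrpl53 (chr6:83109040-83109939), had 0 counts in all 6 libraries. It lies wholly inside Gm42688, a protein-coding gene annotated on the same strand, and reads there cannot be assigned to either gene alone, so the 0 is not read as absence of the transcript.

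The libraries were polyA RNA-seq of epithelium scraped from the small intestine, 1 library per mouse, with 3 control and 3 double-knockout mice. Controls were Vil1-Cre-ERT2- and homozygous for loxP alleles of both targeted genes, of which Ncor1, a corepressor gene, is one. Knockouts carried the same alleles and were Vil1-Cre-ERT2+, so that a tamoxifen-dependent Cre under the villin 1 promoter, active in intestinal epithelium, could delete both. Tamoxifen was given to mice aged 8 to 9 weeks, at 15 mg per 100 g body weight for 5 days, and the mice, housed singly, entered metabolic cages at day 21. Only the knockouts carried Cre, so its effect and that of the deletions cannot be told apart, and the stretch of intestine behind each library is not given in the sources used here.

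Ncor1 was at 140, 137 and 99.3 CPM, the count scaled to a common library total, in the control mice (482, 483, 486). In the knockout mice (423, 476, 477) it was at 31.3, 36.4 and 22.5 CPM, matching the labels. Libraries held 23476031 to 46835165 counts, so that 3 counts equal 0.0586 to 0.173 CPM. The totals behind CPM are adjusted with the trimmed mean of M-values (TMM). The 20 most abundant genes took 12.8% to 15.9% of counts in controls and 22.3% to 29.1% in knockouts. Short genes were higher in the knockouts relative to long genes: over all tested genes the Spearman rho between log2 fold change and exon length was -0.37. Enterocyte marker genes summed to 49094 to 69528 CPM in controls and 101695 to 192267 CPM in knockouts, with Fabp2, Apoa4 and Fabp1 the markers that rose. The median log2 fold change of the 10 markers was 0.34, Vil1 fell by 1.20, and Epcam, Sis and Cdh1 were at -0.62, -0.17 and -0.12 without passing the test. The whole tissue was measured, so fewer cells of a type and less RNA per cell cannot be told apart.

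Mitochondrial ribosomal protein genes were higher in the knockout epithelium as a group. In edgeR's quasi-likelihood test with Benjamini-Hochberg adjustment over all tested genes, at a threshold of 0.05, 50 of 77 members were significantly higher (64.9%) and 0 lower. Over all genes tested, 17.3% were called higher and 18.3% lower. The other 27 members did not pass the test, and an unadjusted edgeR p under 0.05 also gave 0 lower members. DESeq2 called 52 higher (background 20.1%) and 0 lower. The median log2 fold change (knockout over control) of the 77 was 1.01, with quartiles of 0.52 and 1.26, against a median of -0.06 over all tested genes. The fold change was above 0 for 75 members; with libraries scaled by their totals alone, which shifts the median of all genes by -0.44, it was above 0 for 65 and below 0 for 12, and 22 members were called higher (background 7.54%). The members' median stood 1.06 above that of all genes with TMM and 1.09 above it with library totals alone. A change of scaling shifts all genes by nearly the same amount, so this gap could hardly change and is no check on the scaling.

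**Figure D1:**
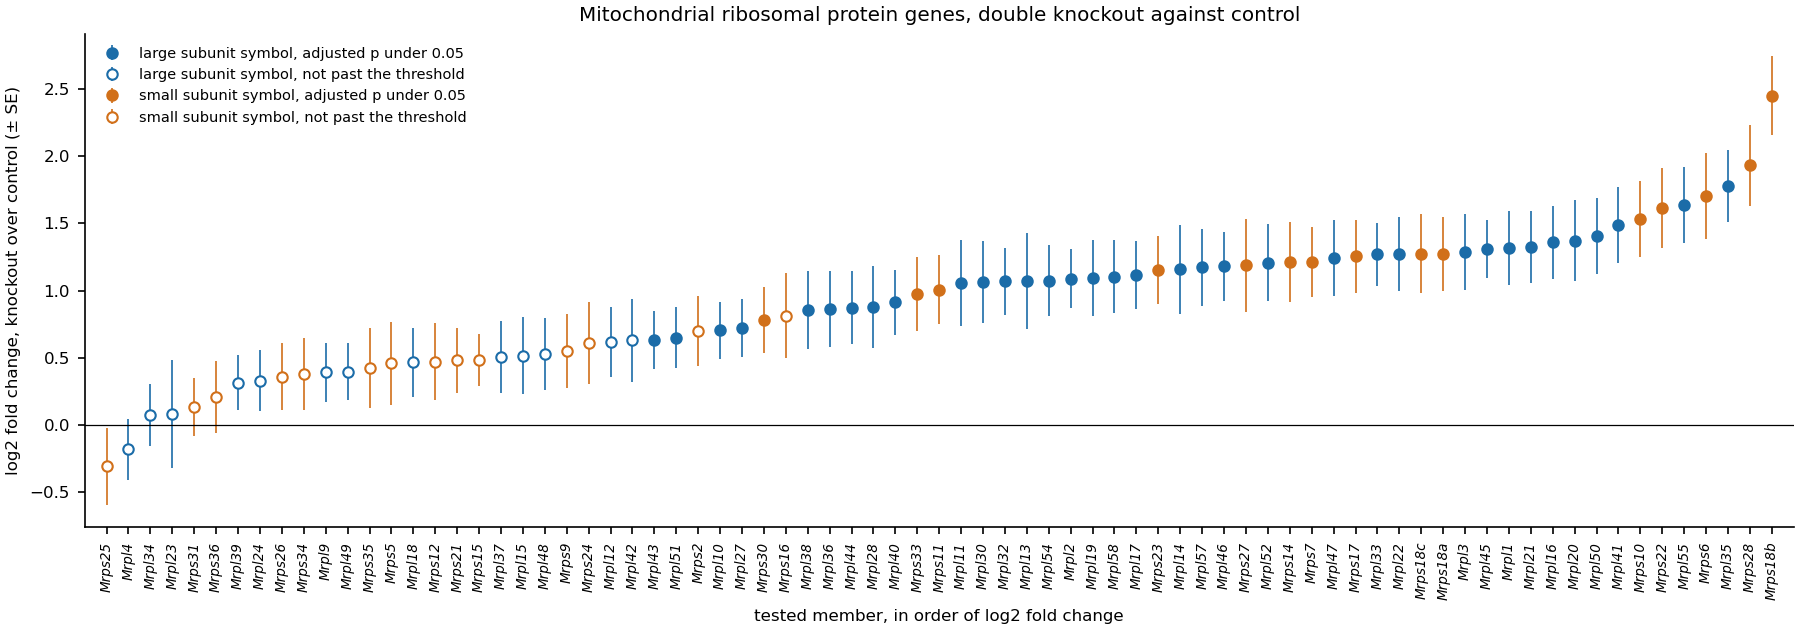
Log2 fold change (knockout over control, ± SE, 3 libraries per genotype) of each of the 77 tested members in rising order. Blue marks large-subunit and orange small-subunit symbols, filled where the adjusted p was under 0.05; the filled points run from 0.63 (Mrpl43) to 2.45 (Mrps18b), and no point below 0 is filled.

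In 49 members every knockout library lay above every control library, and in none did every knockout lie below. The same share over all genes tested was 23.9% above and 26.4% below. Mrpl13, Mrpl28 and Mrpl36 were called higher although their groups overlapped, and Mrps15 and Mrps2 did not overlap but missed the threshold. A log2 fold change above 1 was reached by 39 members, against 15.5% of all genes tested.

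Taken as 1 pool of transcripts, the members made up 0.208%, 0.191% and 0.289% of all counts in controls 482, 483 and 486 and 0.399%, 0.253% and 0.289% in knockouts 423, 476 and 477. As raw shares the genotypes overlapped, with means of 0.230% ± 0.0522 and 0.314% ± 0.0761 (SD, n = 3 each). Without the 20 most abundant genes of the libraries in the totals, the shares were 0.234%, 0.223% and 0.331% in controls and 0.508%, 0.335% and 0.400% in knockouts, and the highest control stood just under the lowest knockout. Summed TMM-scaled levels were 1626, 1693 and 2643 CPM in controls and 4095, 2905 and 3902 CPM in knockouts, a ratio of means of 1.83. How far the genotypes separate for the pool as a whole therefore turned on what it was divided by.

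**Figure D2:**
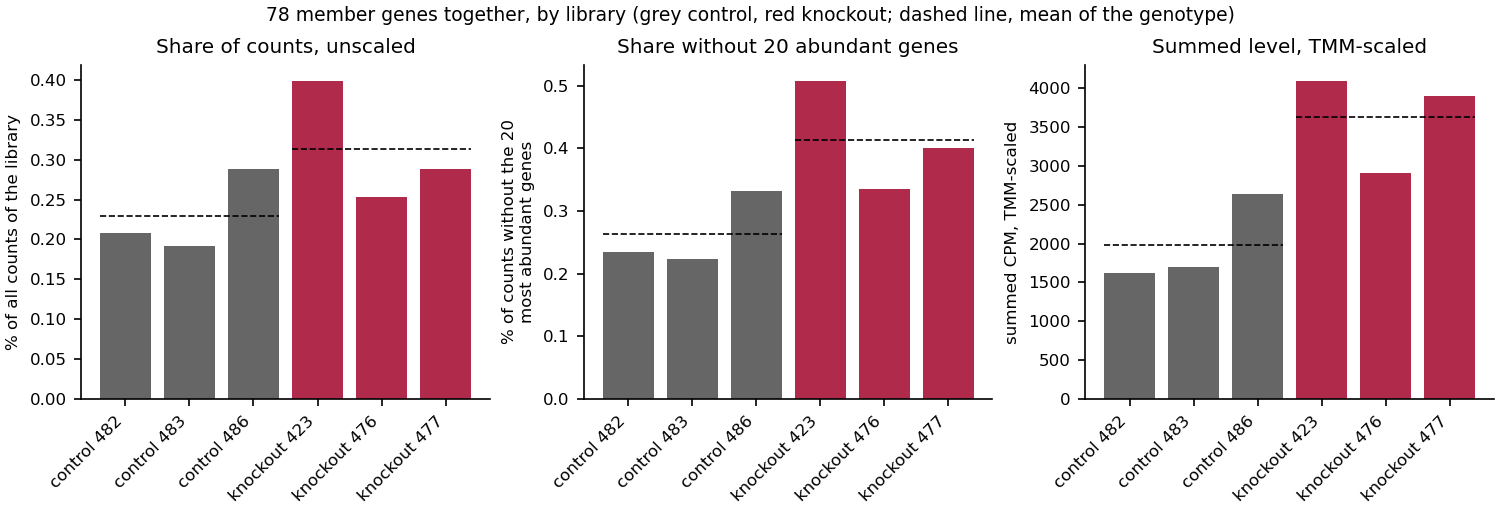
The members together in each library: share of all counts (left, %), share without the 20 most abundant genes (centre, %) and summed TMM-scaled CPM (right). Grey bars are controls, red bars knockouts and dashed lines genotype means; in the left panel control 486 lies above knockout 476 and is at 0.289%, as is knockout 477, and in the other panels it lies below all knockouts.

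Control 486 was the highest of the 3 controls for 77 of 77 members, and the highest of all 6 libraries for 4. Among the knockouts, 423 was highest for 50 members and 477 for 27, and 476 for none. Members thus moved up and down together from library to library. Across the 6 libraries the correlation of a member's log2 CPM with the mean of the other members had a median of 0.96, and it was above 0.8 for 69 of 77; the lowest values were 0.03 for Mrpl4 and 0.08 for Mrps25. With each genotype's mean removed the median was 0.92, with 65 above 0.8. All these values come from the same 6 libraries. The same counts were not made for other genes, so they are not read as particular to the members. Control 486 also differed from the other controls in its length profile: the Spearman rho between a gene's deviation from its mean level and exon length was 0.43, 0.36 and 0.02 in controls 482, 483 and 486 and -0.32, -0.19 and -0.38 in knockouts 423, 476 and 477.

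The number of members called changed with the libraries in the fit, as did the share of all genes. Without control 482 it was 33 of 77 (background 9.98% higher), without control 483 also 33 (9.91%), and without control 486 it was 60 (19.3%). Leaving out knockouts 423, 476 and 477 gave 38 (12.2%), 49 (15%) and 36 (10.3%). In all 6 of these fits 0 members were called lower, and the members' median log2 fold change lay between 0.83 and 1.25. In every one of the 6, 32 members were called higher.

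The member with the largest change was Mrps18b (chr17:35910379-35916389, minus strand), 1 of 3 mammalian relatives of bacterial ribosomal protein S18. Its level was 5.65 CPM in control 482, 3.58 in control 483 and 7.75 in control 486. The knockouts had 36.3 CPM (423), 27.7 CPM (476) and 29.1 CPM (477). The lowest knockout was above the highest control, and the log2 fold change was 2.45 (SE 0.29, edgeR adjusted p = 0.000444). Its paralogues rose as well, by less. Mrps18a, whose protein sits in the large subunit despite its symbol, had 15.4, 12.3 and 24.2 CPM in controls and 48.0, 33.0 and 44.6 CPM in knockouts (log2 fold change 1.27, SE 0.28, edgeR adjusted p = 0.00786). Mrps18c had 18.3, 22.0 and 37.7 CPM against 58.4, 51.5 and 78.6 CPM (1.27, SE 0.29, edgeR adjusted p = 0.0102). None of the 3 overlapped between genotypes. The end of Mrps18b overlaps the antisense gene Gm16279, whose own log2 fold change was -0.61, and the strand setting of the counting is not given.

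Below Mrps18b came Mrps28 and Mrpl35. Mrps28 (chr3:8802146-8923918), a small-subunit protein, was at 5.29, 6.69 and 10.6 CPM in controls and 35.1, 21.7 and 29.3 CPM in knockouts, a log2 fold change of 1.93 (SE 0.30). Mrpl35 (chr6:71812997-71826969), a large-subunit protein with a bacterial relative, was at 15.1, 12.7 and 20.7 CPM and at 72.2, 43.1 and 51.3 CPM, a change of 1.78 (SE 0.26). Their edgeR adjusted p were 0.00173 and 0.00139, and in both the knockouts stood clear of the controls.

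Mrps6, the relative of bacterial S6, was at 4.43, 4.02 and 8.36 CPM in controls and 21.3, 14.2 and 19.3 CPM in knockouts (1.70, SE 0.32, edgeR adjusted p = 0.00404). Its locus shares 29152 bases of the same strand with Slc5a3, a myo-inositol transporter gene, whose log2 fold change was 0.31. Mrps22, a mitochondria-specific protein of the small subunit in which inherited variants cause mitochondrial disease, was at 7.76, 7.19 and 13.4 CPM and at 32.5, 21.1 and 33.6 CPM (1.62, SE 0.30, edgeR adjusted p = 0.00370). Mrpl55, Mrps10 and Mrpl41 rose by 1.63, 1.53 and 1.49 on the log2 scale. All 8 members at the top of the order had groups that did not overlap, but they were picked for their change in these same libraries. Control 486 was the highest control in each, as in all 77 members.

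**Figure D3:**
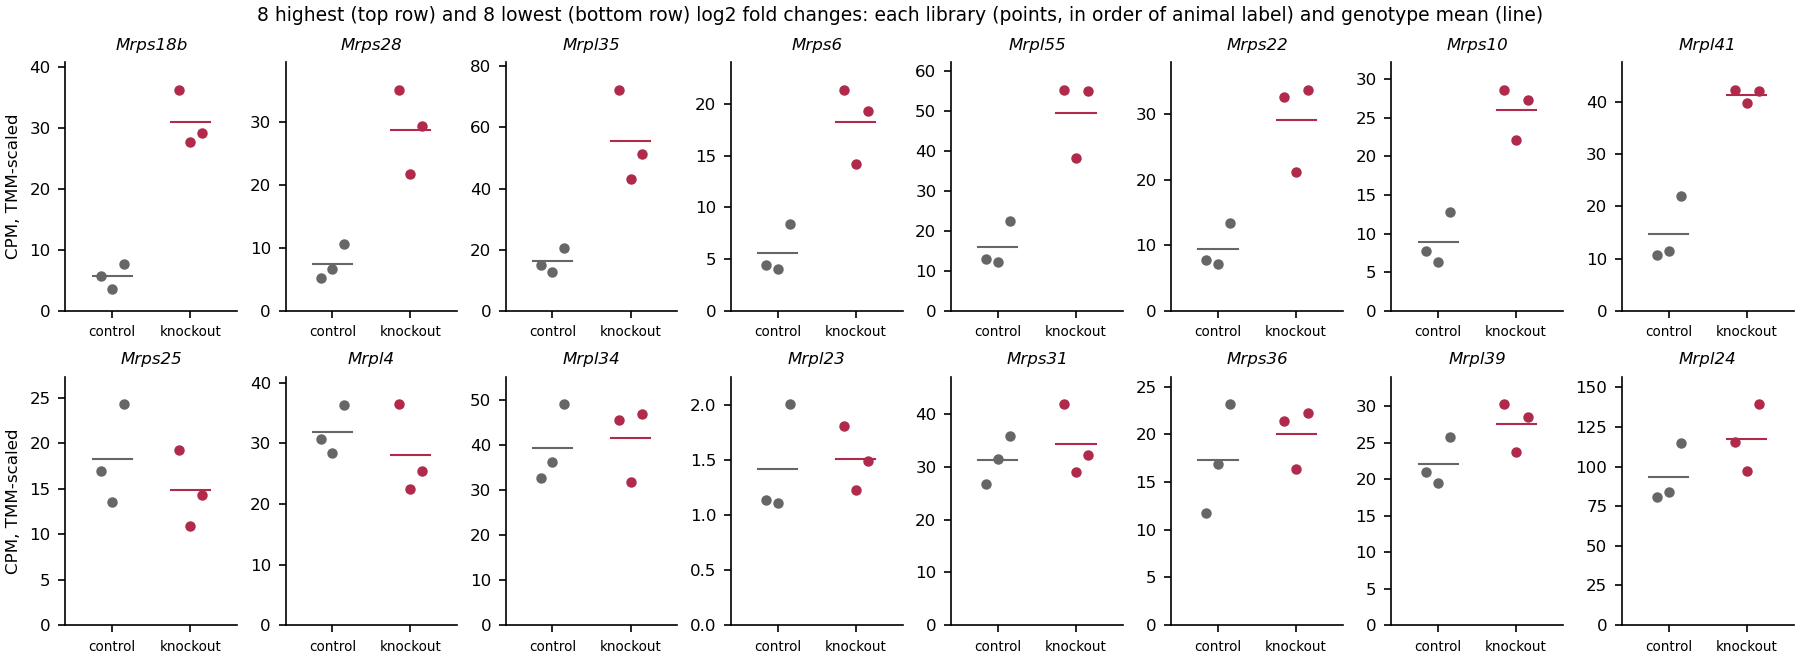
TMM-scaled CPM of each library for the 8 members with the highest (top row) and the 8 with the lowest (bottom row) log2 fold change; points are libraries in the order control 482, 483, 486 and knockout 423, 476, 477, and lines are genotype means. In the top row all knockouts lie above all controls, from 5.66 to 31.0 CPM on average for Mrps18b, and in every panel of the bottom row the groups overlap.

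At the other end of the order no member passed the test. Mrps25 (chr6:92169525-92184033), a mitochondria-specific small-subunit protein, was at 17.0, 13.5 and 24.3 CPM in controls and 19.3, 10.9 and 14.3 CPM in knockouts, a log2 fold change of -0.30 (SE 0.29, edgeR adjusted p = 0.427). Mrpl4, whose bacterial relative L4 lines the tunnel through which the new protein leaves, was at 30.8, 28.4 and 36.3 CPM and at 36.5, 22.5 and 25.4 CPM (-0.18, SE 0.23, edgeR adjusted p = 0.563). The groups overlapped in both. The last 4770 bases of Mrps25 overlap Nr2c2 on the opposite strand, whose log2 fold change was -1.39, and whether reads of Nr2c2 entered the Mrps25 count was not tested.

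Mrpl34 was at 32.6, 36.1 and 49.0 CPM in controls and 45.5, 31.8 and 46.9 CPM in knockouts, a change of 0.08 (SE 0.23). It is the shortest member, with 607 exon bases, and with the length trend of each library removed it was the only member called lower (-0.585, SE 0.18, edgeR adjusted p = 0.0305). Mrpl23 was at 1.14, 1.11 and 2.01 CPM against 1.81, 1.2299 and 1.495 CPM (0.08, SE 0.40). Its processed pseudogene Mrpl23-ps1 had 13.7, 16.2 and 33.5 CPM in controls and 29.3, 21.5 and 32.2 CPM in knockouts, so it drew more counts than the gene in every library. Reads of near-identical copies can be split between gene and pseudogene in the counting, so the level of Mrpl23 is uncertain. The same holds for Mrps36, at 11.7, 16.9 and 23.2 CPM against 21.4, 16.4 and 22.3 CPM, whose copy Mrps36-ps1 had 9.82 to 16.4 CPM in controls and 10.4 to 16.9 CPM in knockouts. Mrps36 is, despite its symbol, known as a component of the 2-oxoglutarate dehydrogenase complex.

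Members were also read by their place in the ribosome. The stalk that recruits translation factors is built from Mrpl10, Mrpl11 and Mrpl12. Mrpl10 was at 30.9, 30.7 and 46.4 CPM in controls and 58.3, 57.1 and 60.5 CPM in knockouts, a log2 fold change of 0.70 (SE 0.21, edgeR adjusted p = 0.0291). Mrpl11 rose by 1.06 (SE 0.32, edgeR adjusted p = 0.0285), from 15.2, 14.3 and 25.8 CPM to 54.8, 27.6 and 32.6 CPM. Mrpl12 had 91.3, 97.9 and 151 CPM against 201, 136 and 186 CPM and did not pass (0.62, SE 0.26, edgeR adjusted p = 0.0894). The calls of Mrpl10 and Mrpl11 were kept in only 1 and 3 of the 6 fits that left out a library. The difference between the 3 genes was not tested.

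Mrps12, part of the decoding centre, was at 14.2, 13.0 and 19.7 CPM in controls and 28.5, 14.2 and 22.4 CPM in knockouts, which overlapped (0.47, SE 0.28, edgeR adjusted p = 0.215). Mrpl45, which holds the ribosome at the inner membrane, rose from 21.4, 20.0 and 30.9 CPM to 61.8, 56.0 and 61.4 CPM (1.31, SE 0.22, edgeR adjusted p = 0.00223). Its knockout values were close to each other and all above the controls. Mrpl58, a peptide release factor that became part of the large subunit and frees stalled ribosomes, rose from 17.8, 17.5 and 33.1 CPM to 50.9, 42.8 and 53.7 CPM (1.10, SE 0.27, edgeR adjusted p = 0.0130). Mrps30, also placed in the large subunit by structure, was at 13.4, 12.4 and 17.8 CPM and at 32.2, 20.6 and 22.2 CPM (0.78, SE 0.24, edgeR adjusted p = 0.0325), a call kept in 2 of 6 fits that left out a library.

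The promoters of the members described above were set beside those of all genes. RefSeq promoters (GRCm38.p6, of which the 250 bases before the start were searched) were matched to 68 of the 77 tested members and to 9787 of 12183 tested protein-coding genes. These bases are shown for 4 members: Mrps18b, with the highest change (chr17:35916441-35916690, minus strand); Mrps25, with the lowest (chr6:92184024-92184273, minus strand); and Mrpl45 (chr11:97315466-97315715, plus strand) and Mrps22 (chr9:98601680-98601929, minus strand), the members with the highest change that hold a match to the NRF1 and ETS motifs. Each is written 5′ to 3′ on the gene's strand, with motif matches in capitals.
Mrps18b: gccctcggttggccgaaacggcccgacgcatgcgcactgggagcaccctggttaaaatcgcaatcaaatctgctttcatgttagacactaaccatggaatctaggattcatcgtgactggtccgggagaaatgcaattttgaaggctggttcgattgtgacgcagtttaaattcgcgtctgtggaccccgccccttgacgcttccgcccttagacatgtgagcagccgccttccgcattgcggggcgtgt
Mrps25: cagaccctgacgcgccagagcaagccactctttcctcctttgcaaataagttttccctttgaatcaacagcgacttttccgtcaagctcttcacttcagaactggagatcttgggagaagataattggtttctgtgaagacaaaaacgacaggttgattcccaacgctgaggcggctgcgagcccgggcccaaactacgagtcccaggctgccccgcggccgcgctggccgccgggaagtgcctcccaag
Mrpl45: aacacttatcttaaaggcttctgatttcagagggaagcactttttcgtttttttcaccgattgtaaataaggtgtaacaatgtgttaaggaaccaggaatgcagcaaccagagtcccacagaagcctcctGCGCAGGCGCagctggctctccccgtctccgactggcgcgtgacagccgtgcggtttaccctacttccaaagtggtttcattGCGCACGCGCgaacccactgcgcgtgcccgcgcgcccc
Mrps22: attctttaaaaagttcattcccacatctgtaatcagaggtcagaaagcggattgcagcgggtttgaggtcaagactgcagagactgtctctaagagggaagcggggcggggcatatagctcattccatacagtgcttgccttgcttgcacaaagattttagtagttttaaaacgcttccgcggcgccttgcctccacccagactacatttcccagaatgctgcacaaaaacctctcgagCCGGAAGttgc

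Capitals in Mrpl45 mark matches on either strand to the NRF1 motif, beginning 120 and 38 bases before the start. In Mrps22 they mark the ETS motif CCGGAAG, 11 bases before the start. Mrps18b and Mrps25, at opposite ends of the order, held none of the 5 motifs searched in the window.

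Over both strands of these 250 bases, the NRF1 motif was in 10 of 68 member promoters (14.7%) and in 8.36% of all, and the ETS motif in 15 (22.1%) and 14.2%. The YY1 motif AAGATGGCG was in 2 member promoters (2.94%, all 1.14%), the E-box CACGTG in 5 (7.35%, all 8.41%) and the estrogen-related receptor motif AAGGTCA in 3 (4.41%, all 2.89%). The ETS and YY1 motifs can share the letters AAG, and a match describes letters only. Members with an NRF1 match were called higher in 6 of 10 cases (median 0.97) and those without in 39 of 58 (median 1.03). With an ETS match it was 12 of 15 (median 1.12), and without 33 of 53 (median 0.97). Over all tested protein-coding genes, 126 of 818 with an NRF1 match were called higher (median -0.03), and 1316 of 8969 without (median -0.16). For ETS these were 243 of 1392 (median 0.01) and 1199 of 8395 (median -0.18), so genes with a match leaned higher there too. The differences were not tested. Member promoters had a median GC content of 58.4%, against 59.6% over all.

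Levels of different genes were compared per kilobase of exon, as RPKM. In controls the most abundant members were Mrpl12 at 74.1 ± 21.5, Mrpl54 at 69.0 ± 21.3 and Mrpl34 at 64.6 ± 14.2 RPKM (SD, n = 3). The SD is among mice and holds variation that the members share, so it does not measure differences between genes, which were not tested. In knockouts Mrpl54 was at 145 ± 23.8, Mrpl12 at 114 ± 22.2 and Mrpl14 at 99.0 ± 26.6 RPKM. The lowest control levels per length were those of Mrpl23 at 0.291 ± 0.105, Mrps10 at 1.11 ± 0.426 and Mrps5 at 1.44 ± 0.457 RPKM. These ranks depend on the gene model: with the longest protein-coding transcript as the length, Mrps10 moved from rank 76 to rank 52 of 77.

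Large- and small-subunit genes were compared next, since every ribosome is built from both. Of the 48 tested large-subunit members 35 rose (median log2 fold change 1.07), and of the 29 small-subunit members 15 rose (median 0.81). Over all tested genes 17.3% were called higher, and 18.3% in the fit with the length trend removed. With the length trend of each library removed 31 of 48 and 18 of 29 were called higher, with medians of 0.86 and 0.89, so the difference of 0.25 between the medians turned to -0.0334. It did not appear in the means either. The mean log2 CPM was 0.94 higher in knockouts for large-subunit and 0.93 higher for small-subunit members. In single libraries the large-subunit mean exceeded the small-subunit mean by 0.60, 0.70 and 0.61 on the log2 CPM scale in controls 482, 483 and 486 and by 0.62, 0.64 and 0.66 in knockouts 423, 476 and 477. The knockout values all lay within the control range, and the genotype means differed by 0.00718, less than the SD of 0.0555 among controls.

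Placing Mrps18a and Mrps30 with the large subunit and Mrps36 with neither, as in the known structure, gave 37 of 50 large-subunit members higher (median 1.07) and 13 of 26 small-subunit members (median 0.89). Members with a bacterial relative and mitochondria-specific members were set side by side: 31 of 47 (66.0%) against 18 of 28 (64.3%) were called higher, with medians of 1.07 and 0.86. Over all tested genes 17.3% were called higher. With the length trend of each library removed the medians were 0.96 and 0.83, and the difference was not tested. The other 2 tested members, Mrpl55 and Mrps36, were not classed.

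Exon length had to be considered, because members are short and short genes as a whole were higher in the knockouts. The tested members had a median of 2533 exon bases (607 to 8631), against 3683.5 over all tested genes. Among the members themselves the log2 fold change had almost no relation to exon length (Spearman rho -0.07 over 77 genes). Among genes of at most 1000 exon bases, 39.1% of all were called higher and 6 of 8 members, with medians of 0.91 and 1.11. Between 6000 and 9000 bases, 8.14% of all genes and 7 of 12 members were called higher, with medians of -0.34 and 0.93. The members' median thus lay above that of all genes in each of the 7 length classes that held members, by little in the shortest and by most in the longest.

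Restricted to the 10th to 90th percentile of member exon length, 39 of 61 members were called higher (median 0.97), against 16.3% of the 9832 tested genes in that range. When the smooth length trend of each library was removed before the test, 49 members rose and 1 fell, with a median of 0.87, against 18.3% higher, 13.6% lower and a median of 0.09 over all genes. Of the 50 members first called, 44 were also called then; Mrpl54 and Mrpl14 were among those that were not, at adjusted p of 0.0767 and 0.0587 in edgeR. With length and GC content removed together the count was 51 higher and 0 lower (18% higher over all genes).

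**Figure D4:**
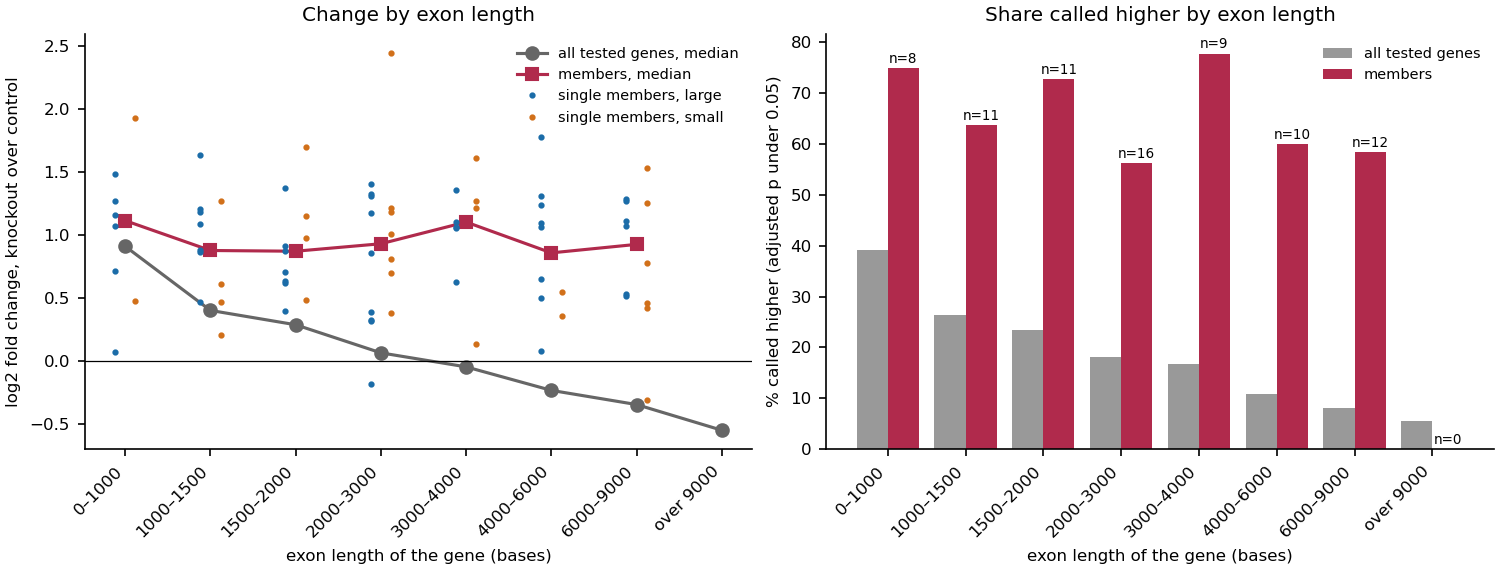
Left, log2 fold change (knockout over control) by class of exon length in bases: grey line, median of all tested genes; red line, median of the members; small points, single members. Right, percent called higher at adjusted p under 0.05 in the same classes, with the number of members above each red bar; the grey values fall from 39.1% to 5.43% along the axis, and the members show no such fall.

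The other genes of mitochondrial translation were counted by list, beside the 17.3% higher and 18.3% lower of all tested genes. Of 5 mitoribosome proteins with other symbols, 2 rose: Gadd45gip1, a large-subunit protein, by 0.92 and Chchd1, of the small subunit, by 1.06 on the log2 scale. Dap3, the GTP-binding protein of the small subunit, was at 34.5, 28.5 and 46.1 CPM in controls and 42.4, 33.9 and 32.1 CPM in knockouts (-0.01). The group's median was 0.65. With the length trend of each library removed, Chchd1 was not called (0.60, edgeR adjusted p = 0.0922). Ptcd3, not called before, was called higher in that fit (1.03, edgeR adjusted p = 0.0160). Of 27 genes for ribosome assembly and rRNA modification, 8 rose (29.6%) and 1 fell, with a median of 0.56. Mtg1, a GTPase of large-subunit assembly, had the largest change: 2.89, 1.69 and 3.63 CPM in controls and 14.3, 10.8 and 11 CPM in knockouts (2.13, SE 0.32). Fastkd2, an RNA-binding protein needed for the large-subunit RNA, rose by 1.71, Malsu1, an assembly factor, by 1.17 and Nsun4, an rRNA methyltransferase, by 0.80. Mettl17 was the member of that list that fell, by 0.90. With the length trend of each library removed, 10 of the 27 were called higher and 0 lower.

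Of 12 translation factors, 3 rose (25%) and none fell, with a median of 0.25. These were Mtrf1, a release factor (2.04), Mrrf, the recycling factor (1.29), and Mtif3, an initiation factor (0.73). Gfm2, which acts in recycling, had a log2 fold change of -0.50 and did not pass. Of 20 aminoacyl-tRNA synthetase and related genes, 4 rose (20.0%) and 1 fell (median 0.10), among them Sars2 at 1.22, Iars2 at 1.18 and Cars2, which fell by 1.227. Of 19 genes for expression of mitochondrial DNA, 4 rose (21.1%) and 1 fell (median 0.32): Slirp, an RNA-stabilising protein, rose by 1.81, Trmt10c, of mitochondrial RNase P, and Tefm, the elongation factor, by 1.44 each, and Polg, the DNA polymerase, fell by 1.00. The shares called higher in these 3 lists were near that of all tested genes. With the length trend of each library removed, 4 of 12, 8 of 20 and 6 of 19 genes were called higher, and 0, 1 and 0 lower. Over all tested genes that fit called 18.3% higher and 13.6% lower. Polg was then not called (-0.44, edgeR adjusted p = 0.0868). No list was tested as a whole.

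None of 10 regulators of mitochondrial biogenesis rose, and 1 fell, with a median of -0.12. That gene was Ppargc1a, which encodes the coactivator PGC-1α, at 41.9, 47 and 27.8 CPM in controls and 15.5, 11.1 and 10.5 CPM in knockouts (-1.65, SE 0.26, edgeR adjusted p = 0.00176). Nrf1 and Gabpa, transcription factors known to act on genes of the mitochondrial ribosome, had log2 fold changes of -0.33 and -0.40 and did not pass. These 10 genes are long, with a median of 6246 exon bases. With the length trend of each library removed, Ppargc1b rose (0.94, edgeR adjusted p = 0.0397) and Ppargc1a still fell (-1.26). The median of the list was then 0.21. Nrf1 was at 0.20 and Gabpa at -0.07 in that fit, again without passing.

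Outside mitochondrial translation, the 85 genes named as cytosolic ribosomal proteins or their paralogues had 82 tested, of which 56 rose and none fell (median 1.15). Many of them have near-identical processed copies, so single values are uncertain. Complex I subunits, which also work in mitochondria, had 7 of 36 higher (19.4%, near the share of all tested genes) and 1 lower (Ndufs1, which fell by 0.80), with a median of 0.51. They are short, with a median of 1532 exon bases, and of all tested genes between 1500 and 2000 bases 23.4% were called higher. With the length trend of each library removed, complex I had 7 higher and 0 lower, and the cytosolic ribosomal proteins 50 higher and 0 lower. The members thus stood nearer in median and in share called to cytosolic ribosomal protein genes than to complex I genes, a description without a test.

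**Figure D5:**
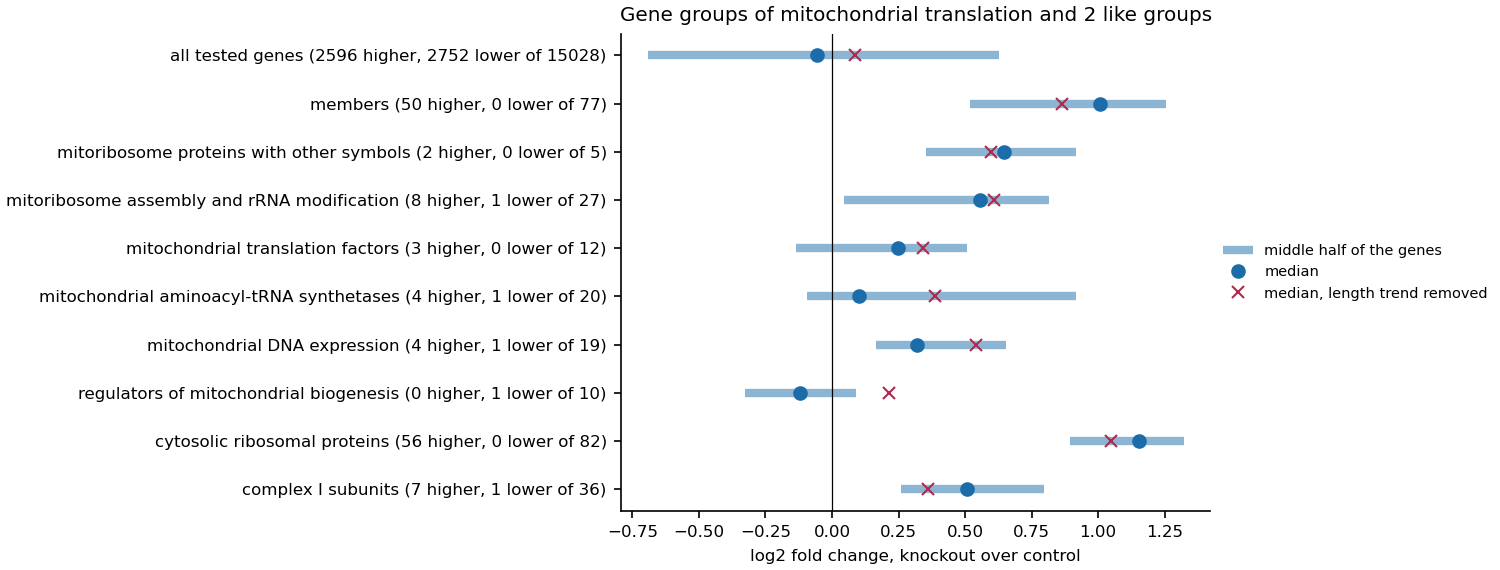
Median log2 fold change (knockout over control, circles), the span from the lower to the upper quartile (bars) and the median with the length trend removed (crosses) for all tested genes, the members and 8 further gene groups, with counts called at adjusted p under 0.05. The members (1.01) and the cytosolic ribosomal proteins (1.15) have the highest medians, with and without the length trend.

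Markers of cell types were counted in the same fit, in which 35.6% of all tested genes were called in either direction. Of 12 tested markers of proliferating and stem cells 1 rose, Pcna, and the summed level of the list was 98.4 to 196 CPM in controls and 164 to 427 CPM in knockouts. The order of this sum among the knockouts, with 423 highest and 476 lowest, was that of the members' sum, but among the controls 482 was highest. Pcna alone was at 29.3, 29.0 and 40.6 CPM in controls 482, 483 and 486. In knockouts 423, 476 and 477 it was at 104, 107 and 150 CPM. Olfm4 was at 189, 26.3 and 28.3 CPM in these knockouts, so their sums and the order rest largely on these genes. Enterocyte markers had 3 of 10 higher and 1 lower, and other epithelial types had 2 higher and 7 lower of 14. All 5 erythrocyte markers rose, from sums of 7.95 to 22.2 CPM to sums of 35.5 to 543 CPM. Leukocyte markers had 1 higher and 2 lower of 11 tested, summing to 110 to 390 CPM in controls and 67.4 to 171 CPM in knockouts; stromal and endothelial markers had 0 higher and 1 lower of 10, at 11.7 to 31.9 and 7.61 to 33.3 CPM. With the length trend of each library removed, 2 of the 5 erythrocyte markers were called higher. Other epithelial types then had 0 higher and 7 lower, and stromal and endothelial markers 1 higher and 1 lower. The counts of the remaining marker lists stayed the same. Over all tested genes that fit called 18.3% higher and 13.6% lower. No listed marker was at 0 in all libraries, and the part of cell composition in the members' change was not tested.

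Many members share their promoter region with a neighbour that points the other way. By GENCODE coordinates, a protein-coding gene on the opposite strand began within 1000 bases of the start of 33 members. Of the 28 such neighbours that were tested and are not members, 5 were called higher (17.9%) and none lower, with a median log2 fold change of 0.09, while 21 of the members beside them were called higher, with a median of 1.07. Mrps18b starts, in GENCODE, 45 bases from Ppp1r10, which had a log2 fold change of -0.38 (edgeR adjusted p = 0.325). The Mrps18b bases printed above (chr17:35916441-35916690) lie before a RefSeq start, which differs from the GENCODE start at 35916389. Both genes rose in 2 pairs, Mrpl32 with Psma2 and Mrpl54 with Apba3. Mrpl46 and Mrps11, which are both members and begin head to head, rose by 1.18 and 1.01. The difference between members and neighbours was not tested.

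Because strand is not given, members were also divided by overlap with other tested genes. Of 53 members that overlap none, 34 were called higher (median 1.06), and of 24 that overlap one, 16 (median 0.94). Over all tested genes 17.3% were called higher. Members lie on 17 chromosomes, with 11 of the tested ones on chromosome 11, of which 9 rose, against 64.9% of all tested members. Counts on other chromosomes ran from 0 of 2 on chromosome 8 to 4 of 4 on chromosome 5. The share of all genes called on each chromosome was not counted, so these counts are no result about a chromosome.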

How the data were processed

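The samples were 6 polyA RNA-seq libraries, 3 control and 3 double-knockout mice, grouped by their titles. Gene counts were deposited by the authors as whole numbers without normalization. Variance-stabilised log2 values, also deposited, served 1 alternative. The submitters' processing notes name STAR 2.7.9a, fastp 0.21.0, Subread 1.6.2 (featureCounts) and the build mm10, among other tools. Annotation, filters and strand setting: not given in the sources used here. Counts of overlapping genes and of near-identical copies can mix.

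Of 55450 identifiers 55190 matched GENCODE M21, which gave symbols, coordinates and exon lengths (union of exons). In R 4.3.3, edgeR 4.0.16 ran filterByExpr, TMM scaling and the robust quasi-likelihood test of knockout against control over 15028 genes, and Benjamini-Hochberg adjusted p-values were called at 0.05; the SE is the log2 fold change over the square root of F. Log2 CPM used a prior count of 2. The test was checked on simulated data. Totals of 23476031 to 46835165 counts set a floor of 3 counts at 0.0586 to 0.173 CPM, which covers counting error only. Libraries of 1 genotype differed by more than sampling noise in every pair (chi-square per degree of freedom at least 63.8).

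The members, gene lists and alternatives were chosen with earlier results of these data known. Named members were the 8 highest and 8 lowest log2 fold changes, the stalk proteins, the Mrps18 paralogues, Mrps12, Mrpl45, Mrpl58, Mrps30 and Mrps36, the 3 most and 3 least abundant per length, and up to 4 genes per pathway list with the smallest adjusted p; Mettl17, Dap3, Nrf1, Gabpa, Mrpl43, Mrpl46, Mrps11 and other single genes outside it were named after their values were seen. Alternatives were 3 scalings, 2 filters, DESeq2 1.42.0, limma 3.58.1 on counts (voom) and on the deposited log2 values, removal of smooth trends with exon length and GC content (mgcv 1.9.3), the 20 most abundant genes left out, each library left out, and subunits by structure. The second targeted gene is not reported here.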

Additional observations from a re-analysis of the deposited data

How the results depend on the processing

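With library totals alone as the scaling, 1133 genes were called higher and 4554 lower, against 2596 and 2752; of the members 22 were higher with a median log2 fold change of 0.60, of the large-subunit members 12 with a median of 0.65, and the small-subunit median was 0.39. The other scalings, filters and tools, and leaving out the 20 most abundant genes, gave 49 to 52 members higher and 0 lower. With the length trend removed 1 member was lower, and the large-minus-small difference of medians reversed to -0.0334; it was 0.0897 with length and GC removed, 0.20 with limma-voom, 0.19 on the variance-stabilised values and 0.17 with subunits by structure. Leaving out 1 library at a time gave 1510 to 2958 genes higher, 1748 to 2982 lower, 33 to 60 members higher, 21 to 40 large-subunit members higher, a small-subunit median of 0.68 to 1.234 and a difference of 0.0620 to 0.22. The cause of these shifts was not tested, beyond the fewer libraries of the last.

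Of 476 values of single named members under the alternatives, 434 kept direction and side of the threshold, 22 lost the call, 1 gained one and 19 changed sign. With library totals alone these were Mrpl34 (-0.35), Mrpl23 (-0.33), Mrps31 (-0.28), Mrps36 (-0.21), Mrpl39 (-0.11) and Mrpl24 (-0.11). With the length trend removed they were Mrps25 (0.0553), Mrpl34 (-0.585) and Mrps36 (-0.0904), and with length and GC removed Mrpl4 (0.11), Mrpl34 (-0.36) and Mrps36 (-0.19). Over the fits that left out 1 library, the range was -0.0476 to 0.27 for Mrpl34 (below 0 without control 482 or knockout 477), -0.0666 to 0.42 for Mrpl23 (below 0 without control 482, control 483 or knockout 423), -0.00276 to 0.26 for Mrps31 (below 0 without knockout 423) and -0.0110 to 0.48 for Mrps36 (below 0 without control 482). In every alternative 64 members stayed above 0 and 21 were called higher. No paired analysis was possible because controls and knockouts have no animal number in common.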

Other observations

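Among processed pseudogenes of the members, Mrpl48-ps was at 6.41 to 10.8 CPM in controls and 8.91 to 16.9 CPM in knockouts (log2 fold change 0.67, edgeR adjusted p = 0.115). Mrps36-ps2 was at 2.57 to 6.01 CPM and 3.42 to 6.15 CPM (0.18, edgeR adjusted p = 0.733), and Mrps36-ps3 had 0 counts in all 6 libraries. None of the pseudogenes with counts passed the test.

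Of the 4 members whose highest level of all libraries was in a control, each had it in control 486.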
